A study of Homo sapiens with 9 samples.

Results

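A set of 10 genes that carry glucose into the cell and break it down were followed in MDA-MB-231 cells, an established human triple-negative breast cancer line. They were 2 glucose transporters (SLC2A1 and SLC2A3) and 8 enzymes of glycolysis (HK1, HK2, ALDOA, GAPDH, PGK1, ENO1, PKM and LDHA), taken by gene symbol out of 27615 genes in the longest of the deposited gene lists. The cells had been treated with DMSO as the vehicle, with rimonabant, an antagonist of the cannabinoid receptor CB1, or with TXX-1-10, a compound derived from rimonabant. RNA was sequenced from 3 libraries of each treatment, 9 in all. All libraries come from 1 cell line with no other genetic change named. At which dose and for how long these cultures were treated is not given in the sources used here. Nothing in the labels says that the libraries of a treatment came from separate cultures, so p-values measure the spread between these libraries, which may be technical.

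Glucose enters the cell through facilitative transporters of the SLC2A (GLUT) family. Hexokinases then phosphorylate it and so trap it, aldolase splits the sugar into triose phosphates, and GAPDH, PGK1, enolase and pyruvate kinase turn these into pyruvate with a yield of ATP. Lactate dehydrogenase reduces pyruvate to lactate and gives back the NAD that GAPDH needs. Cancer cells, triple-negative breast cancer cells among them, are known for running this pathway at a high rate even when oxygen is present, and the transcription factors HIF-1 and MYC are textbook activators of several of its genes.

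HIF-1 binds DNA at the core letters ACGTG or GCGTG, and MYC binds the palindrome CACGTG, which itself holds ACGTG on both strands. The promoter windows of 3 genes are shown because all of them fell under TXX-1-10 while their windows hold these letters in different numbers. Each window is the 250 bases before a transcription start in RefSeq (build GRCh38.p14), read 5′ to 3′ on the strand of the gene, and capitals mark ACGTG on either strand.
LDHA, chr11:18394313-18394562, plus strand: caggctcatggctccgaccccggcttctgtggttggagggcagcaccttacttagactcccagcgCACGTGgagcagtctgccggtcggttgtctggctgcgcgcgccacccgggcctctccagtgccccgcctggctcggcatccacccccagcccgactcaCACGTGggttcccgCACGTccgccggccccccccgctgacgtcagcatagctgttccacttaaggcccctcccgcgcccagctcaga
PGK1, chrX:78103998-78104247, plus strand: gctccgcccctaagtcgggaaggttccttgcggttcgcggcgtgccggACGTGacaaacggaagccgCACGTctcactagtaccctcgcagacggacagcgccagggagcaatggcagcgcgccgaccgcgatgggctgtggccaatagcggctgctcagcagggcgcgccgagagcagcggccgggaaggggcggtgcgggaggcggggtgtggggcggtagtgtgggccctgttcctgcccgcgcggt
SLC2A1, chr1:42958869-42959118, minus strand: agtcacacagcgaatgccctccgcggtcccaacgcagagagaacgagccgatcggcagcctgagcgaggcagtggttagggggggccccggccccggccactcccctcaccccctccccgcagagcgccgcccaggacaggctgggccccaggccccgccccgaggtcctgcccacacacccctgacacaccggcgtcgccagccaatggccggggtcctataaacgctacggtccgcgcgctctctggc
The LDHA window shown held ACGTG 5 times, both strands counted, and 2 of its capital stretches were the whole palindrome CACGTG. LDHA has a second window (chr11:18396101-18396350), which held no ACGTG or CACGTG and GCGTG 1 time. The PGK1 window held ACGTG 2 times, and the SLC2A1 window held none of the 3 motifs. RefSeq windows were at hand for 9 of the 10 genes, with 19 windows in all because several genes have more than 1 start. ACGTG occurred in 8 of the 19, which belong to 5 genes (LDHA, PGK1, GAPDH, HK2 and ALDOA), against 18.5% of all 35116 promoter windows of that length. GCGTG occurred in 6 of the 19, against 32.2% of all windows, and CACGTG in 4 of the 19, against 6.34%. Genes with several starts count more than once among the 19. The absence of these letters from a window says nothing about the factor elsewhere.

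The authors deposited a read count and an FPKM value (the count scaled to gene length and to the depth of the library) for each listed gene of each library. Levels below are FPKM, and changes are log2 fold changes from edgeR on the counts. A gene was called higher or lower when the edgeR adjusted p was under 0.05, and changed when the log2 fold change was also at least 1 in size. The library totals behind the FPKM values ranged from 17078370 to 19277808, and which reads they count is not given. The list of rimonabant replicate 1 ends early, so 4236 genes could be tested over all 9 libraries, and ALDOA, absent from that list, was tested among 9369 genes in the other 8 libraries, where 75.3% of genes were called and 12.7% changed under TXX-1-10, 46.5% were called under rimonabant and 60.6% between the compounds. Rimonabant replicate 1 and TXX-1-10 replicate 3 stood apart from their groups: pairs holding either one gave chi-square values of 24.3 to 42.2 per degree of freedom against 2.29 to 6.75 for the other pairs, and their deviations fell with gene length (Spearman's rho across genes = -0.693 and -0.692). All 8 markers chosen for the line (VIM, CD44, EGFR, CAV1, AXL, MSN, LGALS1 and ANXA1) were listed in every library with at least 1561 reads, while ESR1 had at most 8 reads and PGR at most 13 where listed. Of the other 6 markers chosen as low or absent in the line, ERBB2 had 1329 to 1754 reads in the 9 libraries and the epithelial marker EPCAM 208 to 246 where listed, while PECAM1 had at most 23, PTPRC at most 10 and CDH1 0, and HBB was in no list used here. CAV1 and LGALS1 among these markers themselves changed under TXX-1-10 (-2.70 and -1.34), and CAV1 also changed under rimonabant (-1.53).

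Most of the 10 mRNAs were lower under TXX-1-10, and fewer of them under rimonabant. Against vehicle, TXX-1-10 gave 7 of the 9 genes tested over all libraries a lower level and 2 a higher one (SLC2A3 and HK1), and the values of the groups did not overlap for any of the 9. For comparison, 43.8% of all tested genes were lower and 30.5% higher, and 78.7% did not overlap. SLC2A3 changed upward, against 4.2% of all tested genes, and SLC2A1 and LDHA changed downward, against 7.6%. The median log2 fold change of the 9 genes was -0.86, against -0.09 for all tested genes. Rimonabant gave 4 lower (SLC2A1, GAPDH, PKM and LDHA), 2 higher (SLC2A3 and HK1) and 3 not past the test (HK2, PGK1 and ENO1), against 25.2% lower and 23.7% higher of all tested genes. Vehicle and rimonabant values did not overlap for 7 of the 9 (all but HK2 and PGK1), against 61.1% of all tested genes. None of the 9 reached the fold threshold under rimonabant, where 1.13% of all tested genes changed. The median was -0.19, against -0.02. With the sum of the tested counts as library size, the median of all genes under TXX-1-10 moved to 0.08, and the share of higher genes among those changed moved from 35.6% to 52.8%, while the 9 genes kept their calls against vehicle.

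Reads of the 10 genes together made up 1.005%, 1.004% and 1.014% of the library total in the vehicle libraries. Rimonabant libraries gave 0.893% (replicate 1, without ALDOA), 0.795% and 0.808%, and TXX-1-10 libraries 0.537%, 0.536% and 0.584%. The treatments did not overlap, with vehicle highest and TXX-1-10 lowest. The library total is the one behind the FPKM values and not the sum of the listed counts. That sum was 17492638 in vehicle replicate 1 (total 17078370) and 16836181 in TXX-1-10 replicate 2 (total 18394759). It exceeded the total in vehicle replicates 1 and 3 and fell short of it in the other libraries. The size of the fall in share thus depends on the total used. In RNA from whole cultures a smaller share of cells expressing a gene and less of its RNA per cell cannot be told apart.

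**Figure D1:**
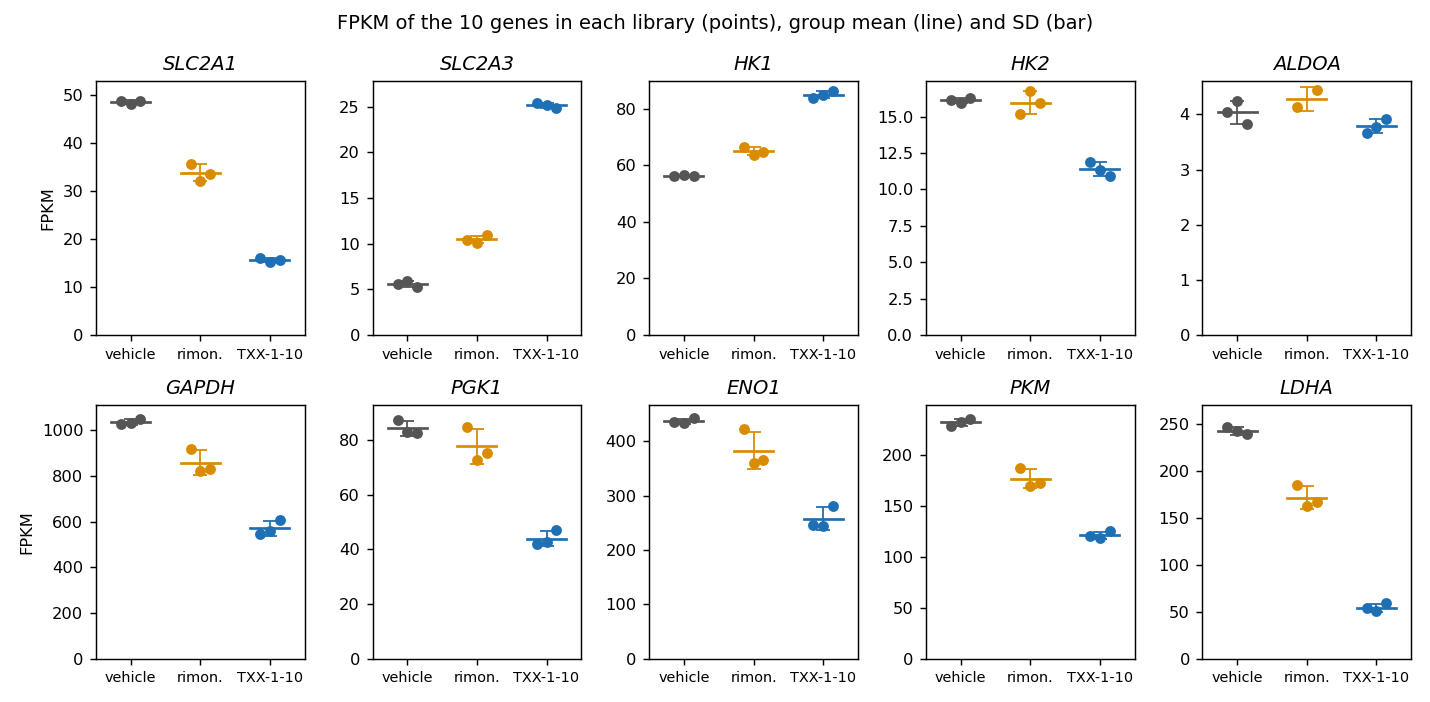
FPKM (linear axis from 0) of the 10 genes in each library, by treatment (rimon., rimonabant); points are libraries, lines are group means and bars are 1 SD. SLC2A3 rose from 5.59 to 25.1 FPKM between vehicle and TXX-1-10 while SLC2A1 fell from 48.6 to 15.7, and ALDOA stayed between 3.67 and 4.44 in all 8 libraries that list it.

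The 2 transporters moved in opposite directions. SLC2A1 (ENSG00000117394, chr1:42925375-42959176), which encodes GLUT1, the transporter behind basal glucose uptake in most cells, stood at 48.8, 48.2 and 48.8 FPKM in vehicle, at 35.7, 32.1 and 33.7 in rimonabant and at 15.7 ± 0.4 (SD, n = 3) in TXX-1-10, from 15.3 to 16.2. Every rimonabant library was below every vehicle library, and every TXX-1-10 library was below both. The log2 fold change was -0.52 ± 0.05 (SE) under rimonabant (edgeR adjusted p = 2.58e-05) and -1.63 ± 0.05 under TXX-1-10 (edgeR adjusted p = 1.51e-09), which left 32.3% of the vehicle level.

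SLC2A3 (ENSG00000059804, chr12:7919230-7936275) encodes GLUT3, a transporter with a high affinity for glucose that is best known from neurons. Its level was 5.56, 5.93 and 5.29 FPKM in vehicle, 10.4, 10.1 and 10.9 in rimonabant, and 25.4, 25.2 and 24.9 in TXX-1-10. The order of treatments was thus the reverse of that for SLC2A1, again with no overlap. SLC2A3 was 1.87-fold higher under rimonabant (log2 0.90 ± 0.06, edgeR adjusted p = 2.57e-06) and 4.49-fold higher under TXX-1-10 (log2 2.17 ± 0.06, edgeR adjusted p = 6.62e-10), where 13 of the 4236 genes had a larger rise. These 4236 genes had to be in the short list of rimonabant replicate 1, where SLC2A3 had 1119 reads against 561 to 630 in vehicle. Its place, and the shares of genes changed upward given beside it, cover only genes high enough to be listed there. SLC2A3 may be among them only because its level rose under rimonabant. Its place and these shares are therefore no measure of how unusual its rise was. The near-identical paralog of SLC2A3, SLC2A14, had 10 to 22 reads in the 4 libraries that list it, against at least 561 for SLC2A3. How the counting shared reads between the pair is not given beyond the use of uniquely mapped reads.

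Within each library the ratio of SLC2A3 to SLC2A1 in FPKM was 0.115 ± 0.007 (SD, n = 3) in vehicle, 0.310 ± 0.017 in rimonabant and 1.60 ± 0.04 in TXX-1-10. SLC2A3 passed SLC2A1 in each TXX-1-10 library and in none of the other 6. The log2 ratio rose by 1.43 under rimonabant and by 3.80 under TXX-1-10, and the compounds differed by 2.37. An exact two-sided permutation test of these differences gave p = 0.1 each, the smallest that 3 against 3 libraries allow, and 0.129 adjusted over the 9 ratio tests.

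The hexokinases also parted. HK1 (ENSG00000156515, chr10:69269984-69401884), the widely expressed hexokinase, gave 56.0, 56.6 and 56.2 FPKM in vehicle, 66.6, 63.8 and 64.7 in rimonabant and 83.9, 85.0 and 86.1 in TXX-1-10. Levels rose without overlap, on the log2 scale by 0.21 ± 0.04 (SE) with rimonabant (edgeR adjusted p = 0.00254) and by 0.59 ± 0.04 with TXX-1-10 (edgeR adjusted p = 5.27e-07). HK2 (ENSG00000159399, chr2:74833981-74893359), the form that many tumours gain, was at 16.1, 15.9 and 16.3 FPKM in vehicle, 15.2, 16.7 and 15.9 in rimonabant and 11.9, 11.3 and 10.9 in TXX-1-10. The vehicle and rimonabant libraries overlapped, and the TXX-1-10 libraries were below both. HK2 fell by 0.50 on the log2 scale under TXX-1-10 (SE 0.05, edgeR adjusted p = 1.11e-05). Under rimonabant its log2 fold change was -0.01, with a 95% interval from -0.13 to 0.10 (edgeR adjusted p = 0.839), and the sign turned to 0.06 with the sum of tested counts as library size.

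HK2 was below HK1 in every library. The ratio of HK2 to HK1 was 0.286 ± 0.004 in vehicle, 0.246 ± 0.017 in rimonabant and 0.134 ± 0.008 in TXX-1-10 (SD, n = 3 each). On the log2 scale it fell by 0.22 under rimonabant and by 1.10 under TXX-1-10 (exact permutation p = 0.1 for each, the smallest possible).

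ALDOA was the only one of the 10 whose level did not pass the test in any comparison. ALDOA (ENSG00000149925, chr16:30064164-30070457), the main aldolase of glycolysis, was at 4.04, 4.25 and 3.83 FPKM in vehicle, 4.13 and 4.44 in the 2 rimonabant libraries that list it, and 3.67, 3.78 and 3.91 in TXX-1-10. In the 8-library fit the log2 fold change was 0.08 under rimonabant (95% interval -0.11 to 0.28, edgeR adjusted p = 0.465) and -0.09 under TXX-1-10 (-0.27 to 0.09, edgeR adjusted p = 0.321). It was the lowest of the 10 genes in every treatment. Of its 3916 exonic bases 42.3% are shared, on the same strand, with the protein-coding gene AC093512.2 of GENCODE release 29 (ENSG00000285043, chr16:30053090-30070420), and 13.3% with an antisense gene. AC093512.2 had 112 and 112 reads in the 2 vehicle libraries that list it, 151 and 119 in rimonabant and 65, 68 and 64 in TXX-1-10. The part of this overlap in the level or the change of ALDOA was not tested.

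GAPDH, PGK1, ENO1 and PKM, the enzymes that take triose phosphate to pyruvate, all fell under TXX-1-10, to between 52.1% and 58.9% of vehicle. GAPDH (ENSG00000111640, chr12:6533927-6538374), the dehydrogenase of the pathway, stood at 1025, 1030.8 and 1050 FPKM in vehicle, 919.9, 821 and 829 in rimonabant and 546, 558 and 607 in TXX-1-10. No treatments overlapped. The log2 fold change was -0.27 ± 0.07 under rimonabant (edgeR adjusted p = 0.00671) and -0.86 ± 0.07 under TXX-1-10 (edgeR adjusted p = 1.01e-06). GAPDH is widely used as a reference gene for quantitative PCR. An antisense gene covers 14.2% of its exonic bases, and the largest of the 14 GAPDH pseudogenes listed had 156 reads, 0.51% of the lowest GAPDH count.

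PGK1 (ENSG00000102144, chrX:77910739-78129296), the first ATP-yielding kinase of the pathway, was at 87.3, 82.9 and 82.4 FPKM in vehicle, 84.7, 72.6 and 75.3 in rimonabant and 41.9, 42.8 and 46.9 in TXX-1-10. Rimonabant replicate 1 lay within the vehicle range and the other two below it, while TXX-1-10 was below all. The log2 fold change was -0.94 ± 0.07 under TXX-1-10 (edgeR adjusted p = 6.91e-07) and -0.12 under rimonabant (95% interval -0.27 to 0.03, edgeR adjusted p = 0.178). ENO1 (ENSG00000074800, chr1:8861000-8879250), the main enolase, went from 435, 434 and 443 FPKM in vehicle to 423, 361 and 366 in rimonabant and 247, 244 and 282 in TXX-1-10. The log2 value for ENO1 was -0.76 ± 0.08 under TXX-1-10 (edgeR adjusted p = 9.56e-06) and -0.19 under rimonabant, short of the threshold (95% interval -0.37 to -0.01, edgeR adjusted p = 0.0701). Both rimonabant results passed the test without rimonabant replicate 1, one of the libraries that stood apart: PGK1 gave -0.19 (edgeR adjusted p = 0.0284) and ENO1 -0.27 (edgeR adjusted p = 0.0108). ENO1 also passed without TXX-1-10 replicate 3 (-0.19, edgeR adjusted p = 0.0285) and, with every library kept, with TMM (-0.18, edgeR adjusted p = 0.0485), DESeq2 (-0.18, adjusted p = 0.0181) and the length correction (-0.21, edgeR adjusted p = 0.0147).

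PKM (ENSG00000067225, chr15:72199029-72231822) encodes the muscle-type pyruvate kinase, whose splice forms PKM1 and PKM2 a count per gene cannot tell apart. Its level was 228, 232 and 235 FPKM in vehicle, 187, 169 and 173 in rimonabant and 120.1, 118 and 125 in TXX-1-10. Each treatment was clear of the others, with log2 values of -0.39 ± 0.06 for rimonabant (edgeR adjusted p = 0.000323) and -0.94 ± 0.06 for TXX-1-10 (edgeR adjusted p = 1.54e-07).

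LDHA fell furthest of the 10. LDHA (ENSG00000134333, chr11:18394388-18408425), the subunit of lactate dehydrogenase that dominates where lactate is made, was at 246, 242 and 238 FPKM in vehicle, 185, 162 and 167 in rimonabant and 53.6, 50.6 and 59.1 in TXX-1-10. No treatments overlapped. Its log2 fold change was -0.50 ± 0.07 under rimonabant (edgeR adjusted p = 0.000331) and -2.15 ± 0.07 under TXX-1-10 (edgeR adjusted p = 3.06e-09), which left 70.8% and 22.5% of the vehicle level. Of the 4236 genes tested, 30 had a larger fall under TXX-1-10. LDHB, the other subunit of the enzyme, went from 28.3, 26.7 and 22.3 FPKM in vehicle to 17.4 and 18.7 in rimonabant and 12.3, 13.0 and 16.1 in TXX-1-10 in the 8-library fit, which fell on the log2 scale by 0.52 with rimonabant (SE 0.12, edgeR adjusted p = 0.00355) and by 0.90 with TXX-1-10 (SE 0.11, edgeR adjusted p = 6.84e-06). A gene on the same strand shares 33.4% of the LDHB exonic bases. The part of this overlap in the level of LDHB, and so in the ratio of LDHA to LDHB, was not tested. The ratio of LDHA to LDHB was 9.49 ± 1.06 in vehicle (SD, n = 3), 9.14 ± 0.30 in rimonabant (n = 2) and 3.98 ± 0.36 in TXX-1-10 (n = 3). It was thus close in vehicle and rimonabant (log2 difference -0.05, exact permutation p = 1) and lower in every TXX-1-10 library than in every vehicle library (log2 difference -1.25, exact permutation p = 0.1, the smallest possible).

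**Figure D2:**
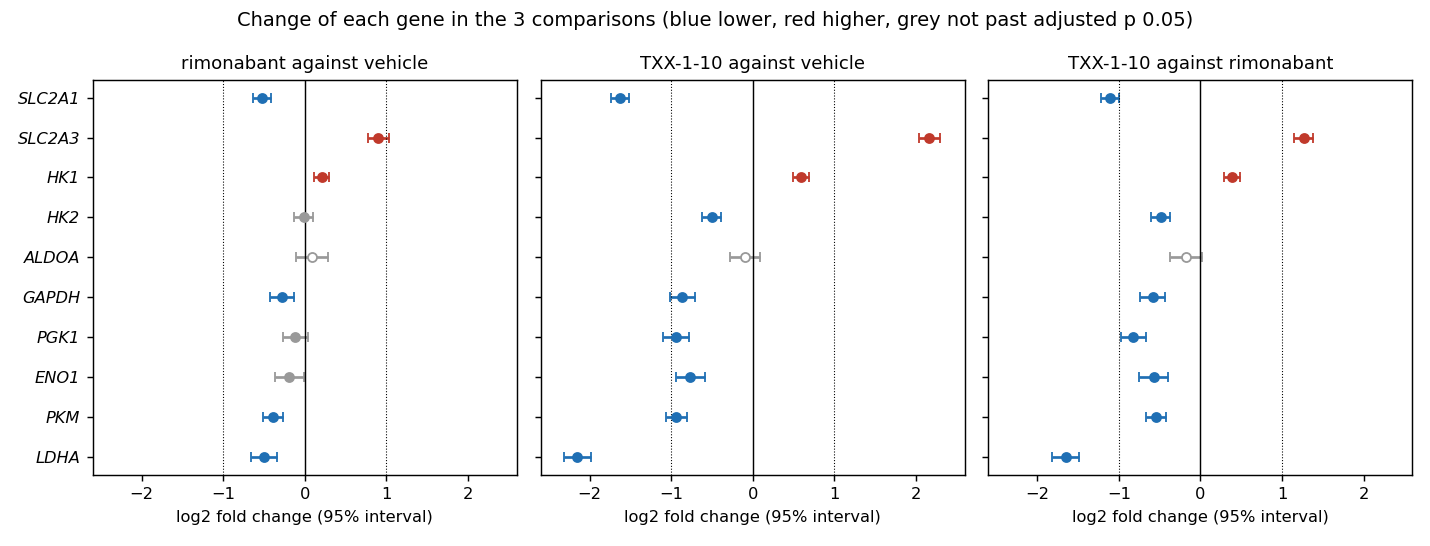
Log2 fold change of the 10 genes with its 95% interval in the 3 comparisons; blue is lower and red higher at an edgeR adjusted p under 0.05, grey is not past it, dotted lines mark 1 and -1, and the open circle (ALDOA) is from the 8-library fit. SLC2A1 (-1.63) and LDHA (-2.15) lie beyond -1 and SLC2A3 (2.17) beyond 1 under TXX-1-10, and no gene lies beyond either line under rimonabant.

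The compounds were also compared directly, as 1 pair, to ask whether the derivative differed from the parent. All 9 genes of the 9-library fit differed between TXX-1-10 and rimonabant, 7 lower and 2 higher with TXX-1-10, against 39.4% lower and 25.1% higher of all tested genes. The compounds' values did not overlap for any of the 9, as for 63.6% of all tested genes. SLC2A1 and LDHA changed downward (4.34% of all tested genes) and SLC2A3 upward (1.58%). The differences (log2, TXX-1-10 minus rimonabant) were -1.11 ± 0.05 for SLC2A1 (edgeR adjusted p = 4.62e-08), -1.65 ± 0.07 for LDHA (edgeR adjusted p = 3.96e-08) and 1.26 ± 0.05 for SLC2A3 (edgeR adjusted p = 3.24e-08). HK1 differed by 0.39 and HK2 by -0.49. The 4 enzymes from GAPDH to PKM differed by -0.54 to -0.82, PGK1 the most. For ALDOA the difference was -0.18, with a 95% interval from -0.38 to 0.02 (edgeR adjusted p = 0.108), so a difference within that interval was not resolved. Whether the 2 compounds were given at the same dose and for the same time is not given, so these are differences between the treatments as applied.

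Levels per length also changed their order. The length used is the union of all annotated exons of a gene, so the order between genes depends on it. The ratios of 2 genes given above rest on the same lengths. ALDOA also shares 42.3% of its exonic bases with AC093512.2. How the order would stand with other lengths was not tested. In vehicle the genes ran GAPDH, ENO1, LDHA, PKM, PGK1, HK1, SLC2A1, HK2, SLC2A3 and ALDOA, and no neighbours overlapped. In rimonabant the order was the same except that PKM (176 ± 9 FPKM) and LDHA (171 ± 12) exchanged places and overlapped. In TXX-1-10 HK1 (85.0 ± 1.1) stood above LDHA (54.4 ± 4.3) and PGK1 (43.9 ± 2.7), and SLC2A3 (25.1 ± 0.2) stood above SLC2A1 (15.7 ± 0.4) and HK2 (11.4 ± 0.5), each as mean ± SD of 3 libraries.

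Most other enzymes of glycolysis that could be tested were lower under TXX-1-10 as well. Of 22 further enzyme genes, 18 were listed and 7 could be tested over all 9 libraries, and under TXX-1-10 6 were lower and 1 higher, with a median of -0.80, against 43.8% lower and 30.5% higher of all tested genes. PGAM1, the phosphoglycerate mutase between PGK1 and ENO1, was the one that changed: 251, 253 and 258 FPKM in vehicle, 240.4, 211 and 217 in rimonabant, and 99.3, 100.3 and 112 in TXX-1-10 (log2 -1.29 ± 0.07, edgeR adjusted p = 5.18e-08). The other enzymes are named after their values were seen. TPI1 (-0.97), GPI (-0.90) and the phosphofructokinases PFKP (-0.80), PFKL (-0.67) and PFKM (-0.59) were lower, and ENO2, the neuronal enolase, was higher (0.56). Under rimonabant PFKP (-0.47), GPI (-0.30), PFKM (-0.29), PFKL (-0.19) and PGAM1 were lower, ENO2 was higher (0.77) and TPI1 did not pass, with a median of -0.23. Of all tested genes 25.2% were lower and 23.7% higher under rimonabant. The PGAM1 call under rimonabant (-0.19, edgeR adjusted p = 0.0349) was lost without any one of vehicle replicates 1, 2 and 3 or rimonabant replicates 2 and 3, where the value lay between -0.20 and -0.15. All 7 were lower in TXX-1-10 than in rimonabant, against 39.4% of all tested genes. With the sum of tested counts as library size, the rimonabant calls of PFKL (-0.12, edgeR adjusted p = 0.0926) and PGAM1 (-0.12, edgeR adjusted p = 0.0698) were lost. A further 5 were tested in the 8-library fit, where 75.3% of all genes were called under TXX-1-10. Of these 5, LDHB, ADPGK (-0.22) and ALDOC were lower under TXX-1-10, ENO3, the muscle enolase, was higher (0.96), and BPGM did not pass. The ADPGK call was lost with the sum of tested counts (-0.08, edgeR adjusted p = 0.252).

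ALDOC, the brain-type aldolase, went opposite ways under the 2 compounds. It stood at 4.80, 5.17 and 5.24 FPKM in vehicle, 6.46 and 6.08 in rimonabant and 2.20, 2.69 and 2.45 in TXX-1-10. The groups did not overlap, and the log2 values were 0.31 ± 0.10 for rimonabant (edgeR adjusted p = 0.0227) and -1.05 ± 0.10 for TXX-1-10 (edgeR adjusted p = 9.15e-07), and the compounds differed by -1.36. The rimonabant call was lost without any one of vehicle replicates 1 and 2 and rimonabant replicates 2 and 3. The value then lay between 0.26 and 0.35. Over the alternatives the TXX-1-10 value ranged from -1.126 to -0.818, in part short of the fold threshold.

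Regulators of the pathway moved in both directions. Of the 6 tested over all libraries, TXNIP and MYC were higher under TXX-1-10 and HIF1A and PFKFB3 lower, with a median of -0.03. Of all tested genes 30.5% were higher and 43.8% lower. TXNIP, an arrestin-like protein that restrains glucose uptake, went from 27.4, 25.5 and 26.0 FPKM in vehicle and 29.3, 29.3 and 27.3 in rimonabant to 53.9, 50.4 and 55.2 in TXX-1-10 (log2 1.02 ± 0.05, edgeR adjusted p = 6.71e-08). It lay just past the fold threshold, and fell below it without vehicle replicate 2 or TXX-1-10 replicate 3. Among genes of the other lists tested over all 9 libraries, none then remained changed upward. MYC rose by 0.39 and PFKFB3, which makes the allosteric activator of phosphofructokinase, fell by 0.59 under TXX-1-10 (both named after their values were seen). MYC was lower under rimonabant (-0.20, edgeR adjusted p = 0.0147), a call that was lost without vehicle replicate 3 (-0.18, edgeR adjusted p = 0.054) or rimonabant replicate 2 (-0.16, edgeR adjusted p = 0.0519). HIF1A, the oxygen-regulated subunit of HIF-1, was lower under rimonabant than under TXX-1-10: 127, 125 and 121 FPKM in vehicle, 46.8, 52.0 and 50.9 in rimonabant and 69.8, 68.7 and 64.6 in TXX-1-10. On the log2 scale HIF1A stood at -1.32 ± 0.06 with rimonabant (edgeR adjusted p = 1.98e-07) and at -0.88 ± 0.06 with TXX-1-10 (edgeR adjusted p = 2.28e-07), and the compounds differed by 0.44 (edgeR adjusted p = 6.69e-05), the reverse of the order seen for SLC2A1, LDHA and the lower enzymes. EPAS1, which encodes the HIF-2 alpha subunit, was lower under rimonabant (-0.54), did not pass under TXX-1-10 and was higher in TXX-1-10 than in rimonabant (0.40), and it too was named after its values were seen.

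A further 7 regulators were tested in the 8-library fit, with 2 rimonabant libraries, among them the kinases and phosphatases that switch pyruvate dehydrogenase off and on. Of all genes in that fit 75.3% were called under TXX-1-10. Under TXX-1-10, PFKFB2, PDP1, PDP2 (0.46) and PDK4 were higher and PDK1 and PDK2 lower, though the PDK2 call (-0.25, edgeR adjusted p = 0.0442) was lost without any one of the vehicle replicates, rimonabant replicates 2 and 3 or TXX-1-10 replicate 3 (-0.28 to -0.15), and with TMM, DESeq2 and the sum of tested counts. PDK1, a kinase that shuts the complex, was at 1.53, 1.32 and 1.26 FPKM in vehicle, 2.04 and 1.92 in rimonabant and 0.962, 1.01 and 0.854 in TXX-1-10. It was above vehicle in both rimonabant libraries (log2 0.53 ± 0.10, edgeR adjusted p = 0.00118) and below it in each TXX-1-10 library (-0.54 ± 0.10, edgeR adjusted p = 0.000311). PDK4, a second such kinase, did the opposite, with 4.86, 4.94 and 4.30 FPKM in vehicle, 3.0 and 3.12 in rimonabant and 6.42, 5.71 and 7.26 in TXX-1-10. The log2 values of PDK4 were -0.62 ± 0.12 for rimonabant (edgeR adjusted p = 0.00106) and 0.46 ± 0.10 for TXX-1-10 (edgeR adjusted p = 0.000837). The compounds differed by -1.07 for PDK1 and by 1.08 for PDK4. Over the alternatives these differences ranged from -1.123 to -0.617 and from 0.874 to 1.16, in part short of the fold threshold. PDP1, a phosphatase that opens the complex, rose by 1.08 and PFKFB2, a maker of the activator of phosphofructokinase, rose by 1.24 under TXX-1-10. Over the alternatives the PDP1 value ranged from 0.989 to 1.216, at its lowest short of the fold threshold.

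The mRNAs of a lactate exporter and of 4 subunits of pyruvate dehydrogenase were lower under TXX-1-10. SLC16A3 (MCT4), the lactate exporter of glycolytic cells, went from 50.5, 53.7 and 56.2 FPKM in vehicle to 34.2, 30.9 and 32.3 in rimonabant and 25.2, 24.8 and 24.6 in TXX-1-10. It fell by 0.72 with rimonabant (edgeR adjusted p = 8.68e-06). With TXX-1-10 it changed by -1.10 ± 0.06 (SE), at an edgeR adjusted p = 4.7e-08. With the sum of tested counts as library size the TXX-1-10 value fell short of the fold threshold (-0.931). SLC16A7 (-0.56) and EMB (-0.46) were lower under TXX-1-10 in the 8-library fit. BSG, a chaperone of SLC16A3 and the only other gene of that list tested over 9 libraries, did not pass in any comparison. SLC16A1 (MCT1), listed in 7 libraries and so not tested, had 12 and 21 reads in vehicle, 58 and 61 in rimonabant and 124, 126 and 130 in TXX-1-10. Of the 8 genes of pyruvate entry, 4 were tested over all libraries (PDHA1, PDHB, DLAT and DLD, subunits of the pyruvate dehydrogenase complex). All 4 were lower under TXX-1-10, from -0.62 to -0.95, against 43.8% of all tested genes. Under rimonabant 1 of them, PDHB, was lower (-0.24), against 25.2% of all tested genes. PC, pyruvate carboxylase, changed by -1.39 ± 0.08 under TXX-1-10 in the 8-library fit (edgeR adjusted p = 7.16e-09), where 75.3% of all genes were called. In that fit the pyruvate carrier subunit MPC2 was lower (-0.66) and its partner MPC1 higher (0.39). PDHX, also a subunit of the pyruvate dehydrogenase complex, did not pass the test.

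The pentose phosphate branch makes NADPH and ribose from the same glucose phosphate. None of its 4 genes tested over all libraries was lower against vehicle with either compound. Of all tested genes 43.8% were lower under TXX-1-10 and 25.2% under rimonabant. The median of the 4 was 0.22 under TXX-1-10 and 0.28 under rimonabant. TKT was higher under TXX-1-10 (0.22), a call that was lost without vehicle replicate 1 (0.18, edgeR adjusted p = 0.0698) and with the length correction (edgeR adjusted p = 0.0617), and PGD was higher under rimonabant (0.41). In the 8-library fit RPE was lower (-0.74) and PGLS higher (0.52) under TXX-1-10, and RPIA did not pass. In glycogen handling and gluconeogenesis 8 genes were tested over all libraries, with 4 lower (PGM1, PGM2, GYS1 and PYGL) and GBE1 higher under TXX-1-10, a share near the 43.8% lower of all tested genes, and a median of -0.21. The GBE1 call (0.15, edgeR adjusted p = 0.0438) was lost without any one of vehicle replicates 1 and 3, rimonabant replicates 2 and 3 and TXX-1-10 replicates 1 and 3 (0.09 to 0.17), and the PGM1 call with the sum of tested counts (-0.13, edgeR adjusted p = 0.0942). PCK2, the mitochondrial enzyme that makes phosphoenolpyruvate, changed upward (1.09 ± 0.08 in the 8-library fit, edgeR adjusted p = 8.77e-08). Over the alternatives the PCK2 value ranged from 0.935 to 1.225, at its lowest short of the fold threshold. Of the 14 genes taken as other hexose transporters 11 were listed and 2 could be tested, both in the 8-library fit. SLC2A13, included as an SLC2A family member although it carries myo-inositol, was higher under both compounds (0.55 under rimonabant and 0.44 under TXX-1-10). SLC2A6 did not pass.

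**Figure D3:**
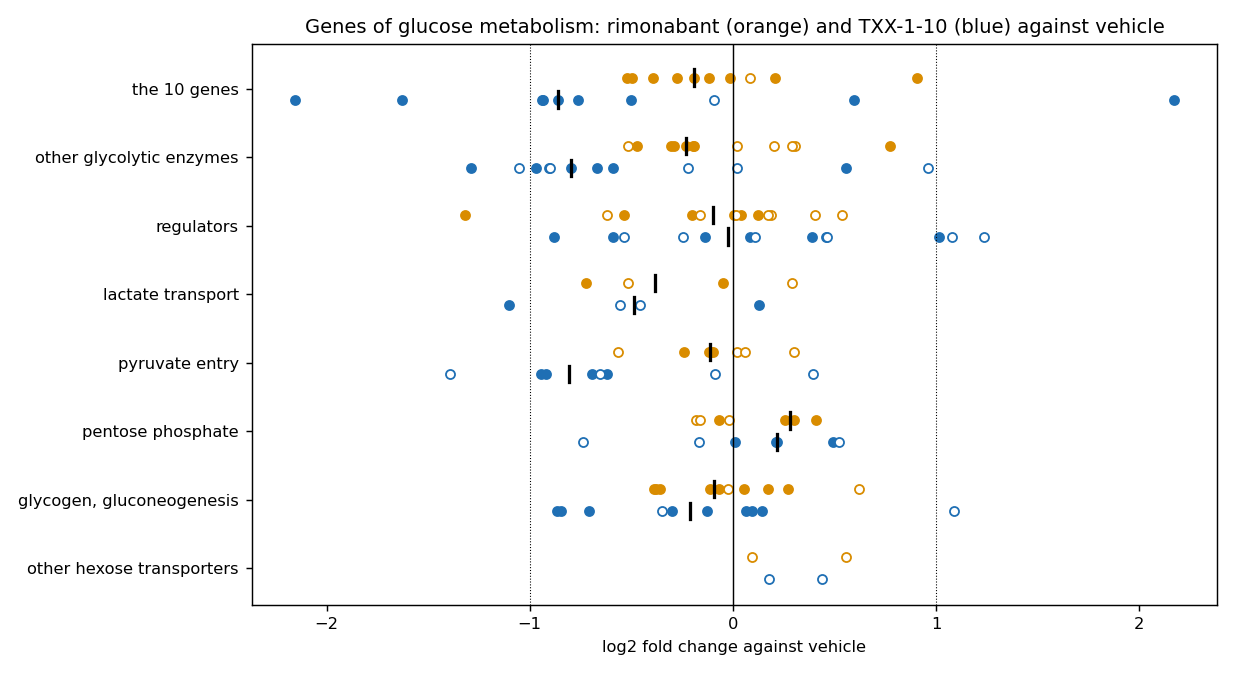
Log2 fold change against vehicle of each tested gene of the 10 and of 7 further lists of glucose metabolism, rimonabant in orange and TXX-1-10 in blue; open circles are from the 8-library fit, and black bars are medians of the genes tested over 9 libraries. Under TXX-1-10 the medians of the 10 genes (-0.86), the other glycolytic enzymes (-0.80) and pyruvate entry (-0.81) lie below 0, and that of the pentose phosphate genes (0.22) lies above it.

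For the 4 genes with the widest range of group means, the tested genes whose log2 FPKM ran most closely with theirs over the 9 libraries were found by Pearson's r. The libraries fall into 3 treatments and share their depth, so these values describe and are given with no test. SLC2A3 ran closest to KLHL21 (r = 0.998), STX3 and CEBPG. SLC2A1 ran closest to VKORC1L1 (r = 0.998), ACO1 and DLGAP5. LDHA ran closest to KHDRBS1 (r = 0.999), KIF22 and SRSF7, and PGK1 to MT-CO3 (r = 0.999), MZT1 and STMN1. No other gene of the 10 was among these 12.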

How the data were processed

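The 9 libraries, made from RNA of MDA-MB-231 cells, were grouped by their labelled treatment (vehicle, rimonabant or TXX-1-10, 3 each). According to the methods of the study, RNA was selected with oligo(dT), libraries were made with NEBNext Ultra, and uniquely mapped exonic reads were used, and the submitters' processing notes name HISAT2 2.0.5 and featureCounts 1.5.0-p3. Whether strand was used in counting is not given in the sources used here. The authors deposited a whole-number count per gene without normalization, and beside it an FPKM value, the same count scaled by the length of the gene and the total of the library. All 27615 gene lengths equal the union of exons in GENCODE release 29 (GRCh38), whose gene models were used for overlaps. Each list is ordered from high counts to low and breaks off within its last line, which was dropped, and a gene missing from a list was not taken as 0.

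Counts were tested with edgeR 4.0.16 in R 4.3.3 (quasi-likelihood F test, all 9 libraries in 1 fit, the library total recovered from count, FPKM and length as library size, Benjamini-Hochberg adjustment over all tested genes) for genes listed in every library with a mean FPKM of at least 1. Genes missing only from rimonabant replicate 1 came from a fit of the other 8 libraries. The fold threshold of 1 (log2) and the adjusted p threshold of 0.05 follow the study. Ratios were tested with exact permutation tests in scipy 1.17.1. Alternatives were TMM, DESeq2 1.42.0, the sum of tested counts, limma 3.58.1 on log2(FPKM + 1) and log2(FPKM + 0.1), other filters, a replicate block, 2 groups only, a correction for gene length, and libraries left out. Precision is set by library totals of 17078370 to 19277808 and a common biological coefficient of variation of 0.0696.

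The 10 genes and the 7 further lists (other hexose transporters, other glycolytic enzymes, regulators, lactate transport, pyruvate entry, pentose phosphate, glycogen and gluconeogenesis) were chosen with earlier results of these data known. The genes named from the lists were those changed in any comparison, the largest change where none did, LDHB and HIF1A, and others are said to be named after their values were seen or are named because they make up a small count. Genes too low to be listed were not analysed here. The values of 1 gene of the pentose phosphate list are not reported here.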

Additional observations from a re-analysis of the deposited data

How the results depend on the processing

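The 10 genes kept direction and side of the threshold in 623 of 639 recomputed values. Of the rest, 11 came to pass the threshold and 0 lost it, and 5 turned in sign, none of them past the threshold. HK2 under rimonabant turned to 0.058 with the sum of tested counts as library size and to 0.019 with the genes of 8 libraries, without both libraries with a length trend and without rimonabant replicate 1, (-0.051 to 0.019 with single libraries left out), and ALDOA under TXX-1-10 turned to 0.045 with the sum of tested counts. The values that came to pass were those of ENO1 and PGK1 under rimonabant, in 8 and 3 alternatives. The counts of the 10 genes called or changed kept within 1.5 times of those given under every alternative.

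The replicate numbers are shared by the treatments, and correlations of same-numbered deviations ran from -0.79 to 0.828, not all above 0.1. The length trend of rimonabant replicate 1 and TXX-1-10 replicate 3 enters these values. They therefore cannot show whether same-numbered libraries were paired. With the replicate block LDHA gave -2.15 and SLC2A3 2.17 under TXX-1-10, and no call of the 10 genes changed. The block ended the rimonabant calls of ALDOC (0.254, edgeR adjusted p = 0.0544), PGAM1 (-0.191, edgeR adjusted p = 0.0575), PFKFB2 (0.181, edgeR adjusted p = 0.0714), MPC1 (0.274, edgeR adjusted p = 0.0933) and PYGB (-0.115, edgeR adjusted p = 0.102). It also ended the TXX-1-10 calls of PDK2 (-0.249, edgeR adjusted p = 0.0557) and GBE1 (0.146, edgeR adjusted p = 0.0787). The block was not alone in this. The rimonabant calls of PFKFB2, MPC1 and PYGB were lost in 11 of 15, 8 of 15 and 14 of 22 alternatives.

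Over all genes, the 8-library gene set, which holds more genes, gave 495 changed upward and 692 downward under TXX-1-10 (178 and 322 over 9 libraries), 69 and 71 under rimonabant (22 and 26), and 197 and 404 between the compounds (67 and 184). With limma on log2(FPKM + 1), 14 changed upward under rimonabant, and the cause was not tested. In the 9-library fit, genes of the other lists changed upward under TXX-1-10 numbered 1 (TXNIP). Alternatives gave 0 with limma on log2(FPKM + 1), 0 without both libraries with a length trend, 4 with the 8-library genes and 0 to 1 with single libraries left out. Those changed downward numbered 2, against 1 with the sum of tested counts and 4 with the 8-library genes. Between the compounds the 8-library genes gave 2 upward and 3 downward (0 and 1 over 9 libraries). The share of higher genes among those with an adjusted p under 0.05 moved with the sum of tested counts from 41.1% to 57.0% under TXX-1-10, from 48.4% to 64.6% under rimonabant and from 39.0% to 52.4% between the compounds, and among those changed between the compounds from 26.7% to 38.3%.

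With 1 added to each FPKM, the log2 ratio of SLC2A3 to SLC2A1 differed by 3.56 under TXX-1-10, 1.31 under rimonabant and 2.25 between the compounds, as the addition shrinks low values. The LDHA to LDHB difference under rimonabant ranged from -0.107 to 0.041 with single libraries left out, and turned in sign without vehicle replicate 3.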
